A study of Mus musculus with 8 samples.

Results

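The genes described here build the nuclear pore and carry cargo through it: nucleoporins, importins, transportins, exportins and the Ran switch that gives transport its direction. They were taken from the gene table by symbol, as protein-coding genes of GENCODE M21 whose names start with Nup, Kpna, Kpnb, Ipo, Xpo or Tnpo followed by a number (or, for Xpot, by t), together with Tpr, Ndc1, Pom121, Ran, Rcc1 and Ranbp2. The rule gave 50 genes of the 35852 in the table, and 48 of the 50 had enough counts to be tested, among 13272 tested genes. Kpna7 and Nup62cl did not: Kpna7 stood at 0 to 0.0502 counts per 1e+06 (CPM) and Nup62cl was at 0 in all 8 libraries. RNA came from bEnd3, an established line of mouse brain endothelial cells, and was measured in poly(A)-selected directional libraries. One group of 4 libraries came from cells given 5 µM corticosterone, the main glucocorticoid of rodents, for 24 h, and the other group of 4 from cells labelled culture medium. All cells were grown in medium with serum, corticosterone also appears in the treatment protocol of the medium libraries, and the labels give no vehicle. The labels do not say whether replicates were separate cultures, so p-values measure the spread between these libraries, which may be technical, and fewer cells that express a gene cannot be told apart from less RNA per cell.

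The pore is a ring of nucleoporins set into the nuclear envelope: outer Y complexes and an inner ring form the scaffold, phenylalanine-glycine (FG) nucleoporins fill the channel, and filaments reach out on the cytoplasmic face and form a basket on the nuclear face. Importins bind cargo in the cytoplasm and release it in the nucleus when Ran-GTP binds them, whereas exportins take up cargo together with Ran-GTP. Rcc1 on chromatin charges Ran with GTP, and the glucocorticoid receptor, which corticosterone activates, is itself cargo of this machinery.

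The total estimated count in units of 1e+06 was 27.7 to 33.2 in the corticosterone libraries and 19.7 to 46.2 in the medium libraries. Of 5 glucocorticoid receptor targets used to check the labels, 5 rose in the 8 and in the 6 libraries, beside 19.5% and 18.4% of all tested genes, among them Fkbp5 with a log2 fold change of 2.77 ± 0.035 (SE; edgeR quasi-likelihood test, adjusted p = 6.33e-14). All 10 endothelial markers were detected, and their summed level was 8880 to 9170 CPM with corticosterone and 8070 to 8580 CPM in medium; 6 of them rose and 3 fell (Pecam1, Kdr and Erg), and in the 6 libraries 5 rose and 3 fell. Summed markers of pericytes and smooth muscle (9 genes) were 3.99 to 6.01 against 5.59 to 6.76 CPM, those of fibroblasts (5 genes) 5.74 to 6.69 against 19.9 to 21.9 CPM, and those of neural, glial and immune cells (8 genes, Aqp4 at 0 in all libraries) 0.887 to 1.19 against 0.418 to 1.04 CPM. The fibroblast sum is mostly Pdgfra, 4.87 ± 0.12 against 18.4 ± 1 CPM (SD, n = 4), while Dcn and Lum were at 0 to 0.151 CPM in all libraries. The part of these markers in the results was not tested. Corticosterone libraries 1 and 2 stand apart: the effective length that divides a count into TPM (transcripts per 1e+06) equalled the full transcript length plus 1 in 100% of transcripts of at least 1000 nt, and in 0% in the other 6 libraries. The counts of genes that passed are therefore also given for the 6 libraries without these 2.

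Corticosterone changed 18 of the nuclear transport genes by small amounts on their own rows: these fold changes ran from a fall by 0.18 to a rise by 0.16 on the log2 scale. Kpna2 summed with its copies fell by 0.21, and Nup210l rose by 0.34 in a fit to 6 libraries but did not pass over all 8. Of the 48 tested members 2 rose, the exportin Xpot and the importin alpha Kpna4, and 16 fell. The 18 make 37.5% of the members, beside 40.1% of all tested genes that passed the same test (edgeR quasi-likelihood test, Benjamini-Hochberg adjusted p under 0.05), so the share that passed is near the background. By direction, 33.3% of the members fell beside 20.6% of all genes, and 4.17% rose beside 19.5%. The log2 fold changes had a median of -0.065 over the members and -0.005 over all tested genes, and 36 members were below 0 and 12 above. None of the 18 members reached an absolute log2 fold change of 0.2, a size that 24.2% of all tested genes both reached and passed. The median SE was 0.029 for the members and 0.051 for all genes, so differences of a few percent could pass.

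In the 6 libraries, 3 members rose and 15 fell, beside 36.4% of all genes that passed (18.4% higher, 18% lower). Nup133, Nup160 and Nup43 no longer passed there, and Ndc1, Nup153 and Nup210l did. Without corticosterone replicate 4, 7 members fell in place of 16. In TPM the direction depends on whether corticosterone 1 and 2 are included. On the TPM of all 8 libraries 0 members rose and 0 fell (limma-trend), and 2 rose and 1 fell at an unadjusted p under 0.05. The members' median log2 change in that fit was 0.067, beside 0.027 over all genes. Of the genes that passed, 61.9% were higher, against 48.6% on counts. On the TPM of the 6 libraries that share one kind of effective length, 0 rose and 12 fell (1 and 19 at an unadjusted p under 0.05). The members' median there was -0.102, beside -0.025 over all genes. Of all genes that passed in that fit, 44.5% were higher.

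**Figure D1:**
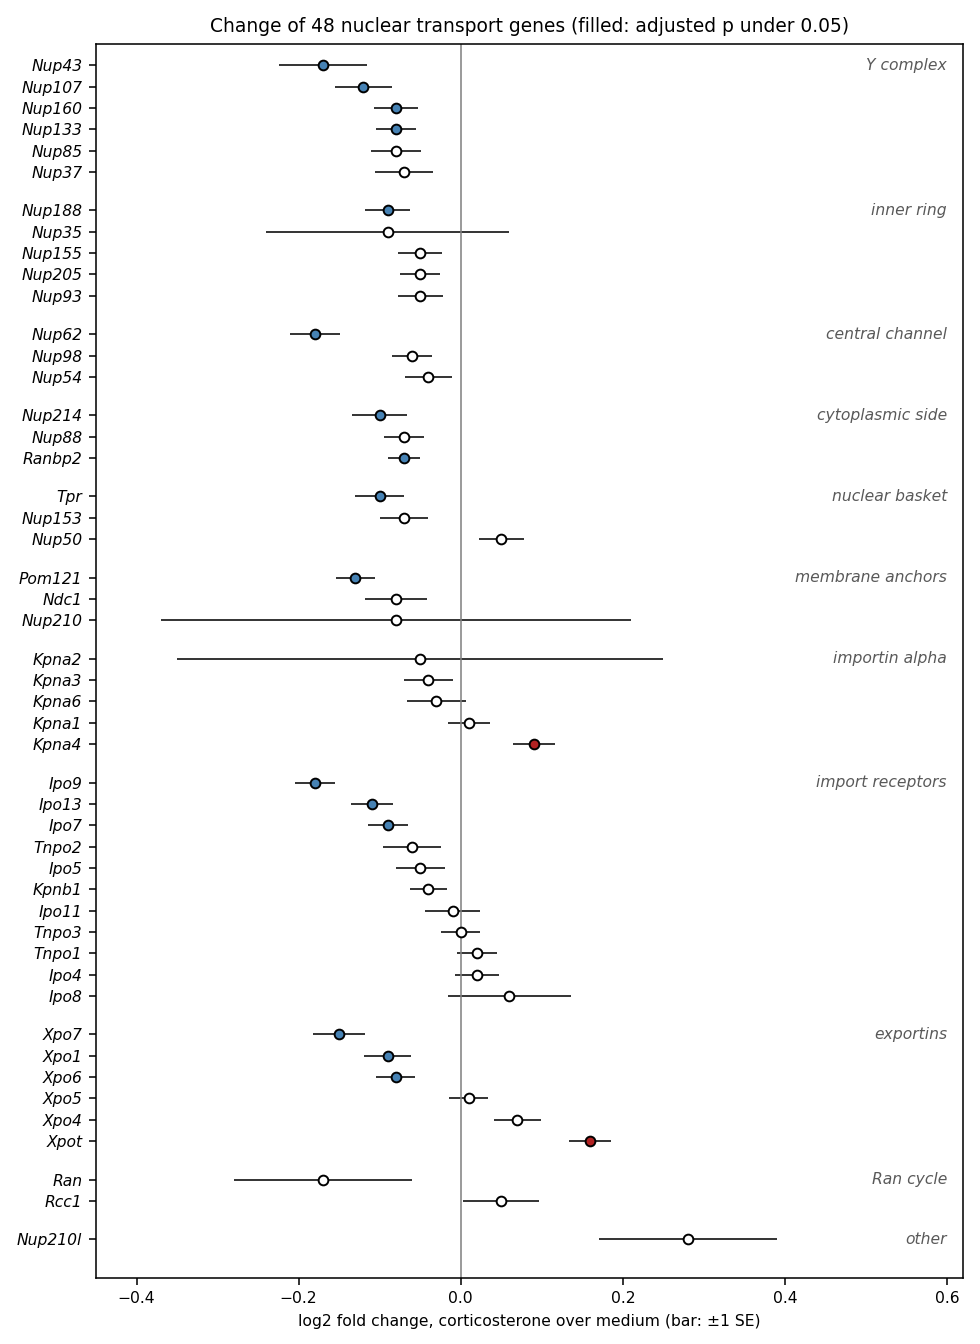
Log2 fold change of corticosterone over medium (x axis; points with ±1 SE, edgeR on counts of all 8 libraries) for the 48 tested members, grouped by role; filled points passed an adjusted p under 0.05 (2 higher in red, 16 lower in blue). Among the nucleoporins 22 of 23 lie left of 0, and on the TPM of all 8 libraries 9 of 23 do.

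Promoter sequence is shown for the 5 members with the smallest p in each direction, Xpot and Kpna4, which rose, and Ipo9, Nup62 and Pom121, which fell; Kpna2 was added after its values were seen, because its level rests on copies of the gene (described with the importins). Each sequence holds the 250 bases before the annotated start, 5′ to 3′ on the gene's strand, from the RefSeq promoter table for GRCm38.p6, and capitals mark matches on either strand to the motif letters searched. Positions are chr10:121626333-121626582 (minus strand) for Xpot, chr3:69127093-69127342 (minus) for Kpna4, chr1:135430500-135430749 (minus) for Ipo9, chr7:44815838-44816087 (plus) for Nup62, chr5:135394547-135394796 (minus) for Pom121 and chr11:106999526-106999775 (minus) for Kpna2.
Xpot: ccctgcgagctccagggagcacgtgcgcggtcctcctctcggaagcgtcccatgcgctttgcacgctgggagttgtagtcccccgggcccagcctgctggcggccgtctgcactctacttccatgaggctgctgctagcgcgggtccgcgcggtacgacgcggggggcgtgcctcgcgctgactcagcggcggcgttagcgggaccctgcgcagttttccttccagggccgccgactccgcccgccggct
Kpna4: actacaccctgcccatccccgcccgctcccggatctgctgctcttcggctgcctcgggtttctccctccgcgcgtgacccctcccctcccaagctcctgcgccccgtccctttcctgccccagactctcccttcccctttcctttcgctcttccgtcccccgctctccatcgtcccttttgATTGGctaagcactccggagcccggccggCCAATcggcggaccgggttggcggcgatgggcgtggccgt
Ipo9: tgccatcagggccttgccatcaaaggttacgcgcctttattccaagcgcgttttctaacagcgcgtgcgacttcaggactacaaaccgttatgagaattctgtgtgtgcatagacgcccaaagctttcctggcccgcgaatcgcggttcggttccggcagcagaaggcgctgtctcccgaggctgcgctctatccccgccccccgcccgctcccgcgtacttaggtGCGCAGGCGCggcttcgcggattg
Nup62: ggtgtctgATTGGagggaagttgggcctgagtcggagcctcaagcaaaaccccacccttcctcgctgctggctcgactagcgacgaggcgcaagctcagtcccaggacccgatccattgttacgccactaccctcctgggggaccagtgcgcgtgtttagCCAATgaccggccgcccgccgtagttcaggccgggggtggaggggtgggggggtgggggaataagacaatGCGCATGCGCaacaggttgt
Pom121: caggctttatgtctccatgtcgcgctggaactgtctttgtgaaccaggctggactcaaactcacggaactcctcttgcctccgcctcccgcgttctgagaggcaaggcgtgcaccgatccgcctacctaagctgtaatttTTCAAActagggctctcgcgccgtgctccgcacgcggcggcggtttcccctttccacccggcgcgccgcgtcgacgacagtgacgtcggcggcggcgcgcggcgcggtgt
Kpna2: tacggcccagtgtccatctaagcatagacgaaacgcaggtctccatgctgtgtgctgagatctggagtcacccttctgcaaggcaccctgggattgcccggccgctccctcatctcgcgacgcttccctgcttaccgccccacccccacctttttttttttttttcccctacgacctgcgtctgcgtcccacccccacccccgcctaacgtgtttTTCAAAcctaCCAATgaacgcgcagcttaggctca
The windows are rich in G and C, from 57.6% in Kpna2 to 71.6% in Xpot, and hold 16 to 33 CpG dinucleotides. Xpot has no capitals. Kpna4 has CCAAT, the core letters of NF-Y sites, on both strands, Nup62 has CCAAT on both strands and, as the run of capitals nearest its start, the NRF1 palindrome; Ipo9 has the looser NRF1 form, the same letters with any base at the fifth position, read on the other strand. Pom121 has TTTGAA, the letters of the cell cycle homology region (CHR), on the other strand, and Kpna2 has TTTGAA on the other strand followed by CCAAT close to its start.

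The table matched 41 of the 50 members and 27025 genes in all, with windows of 250 bases before and 50 after the start. The NRF1 palindrome was found in 5 of 41 members (Nup107, Nup50, Nup62, Ran and Xpo5), 12.2%, beside 1.1% of all genes. Its looser form, which also counts those matches, was in 14.6% beside 5.2%, the ETS letters CCGGAAGT in 9.8% beside 4.3%, CCAAT in 51.2% beside 41.1% and TTTGAA in 26.8% beside 20.2%. TTCGAA was found in Ipo11 alone, 2.4% beside 1.8%. The palindromic glucocorticoid response element matched 0 members and 3 genes in all, and its looser form was in Ndc1 alone (2.4% beside 0.5%). Of the E2F forms, TTTGGCGC matched 0 members (0.6% of all genes), TTTCCCGC matched Nup210 (2.4% beside 1.2%) and TTTGGCGG matched Nup93 (2.4% beside 0.6%). Such matches describe letters and are not measured binding sites, and Nup50, Ran and Xpo5, which hold the NRF1 palindrome, did not pass the test on counts whereas Nup107 and Nup62 did.

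The nucleoporins were lower as a family on counts. Of 23 tested, 0 rose and 10 fell (43.5%, beside 20.6% of all genes), and 22 of 23 fold changes were below 0. At an unadjusted p under 0.05, 0 were higher and 14 lower, DESeq2 gave 0 higher and 5 lower, limma-voom 0 and 9, and edgeR scaled by library size alone 0 and 19. Of all genes that passed, 52.1% were higher in DESeq2, 48.4% in limma-voom and 39.4% with library size alone, against 48.6% in the main fit. With library size alone the median log2 change over all genes was also lower, -0.035 against -0.005. Their summed level was 2779, 2755, 2689 and 2700 CPM in corticosterone libraries 1 to 4 and 2836, 2885, 2916 and 2881 CPM in medium libraries 1 to 4. The 2 groups of sums did not overlap, and the mean was 2731 ± 43.2 CPM with corticosterone and 2879 ± 32.7 CPM in medium (SD, n = 4). In the 6 libraries 9 nucleoporins fell and 20 of 23 were below 0; on the TPM of all 8 libraries the median turned to 0.03 with 9 of 23 below 0, and on the TPM of the 6 libraries it was -0.12 with 22 of 23 below 0. The count of 10 depended on the libraries used. It was 10, 8, 6 and 3 without corticosterone replicate 1, 2, 3 and 4. Without medium replicate 1, 2, 3 and 4 it was 10, 5, 6 and 7. The share of all genes that fell in these smaller fits is not given here.

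The Y complex is the outer scaffold that also binds kinetochores in mitosis. Of the 6 members listed for it, all tested, 4 were lower on counts (66.7%, beside 20.6% of all genes). In the 6 libraries 1 of 6 was lower (16.7%, beside 18%). Subunits outside the rule are not in these counts. In the same edgeR fit to 8 libraries Seh1l (-0.15 ± 0.037, adjusted p = 0.00572) and Ahctf1 (-0.21 ± 0.03, 9.61e-05) fell. Sec13 did not pass (-0.06 ± 0.038, 0.247). Nup107 fell by 0.12 (SE 0.035, adjusted p = 0.0139), and Nup43 (-0.17 ± 0.054), Nup133 (-0.08 ± 0.025) and Nup160 (-0.08 ± 0.027) passed with adjusted p of 0.0268, 0.0252 and 0.0439. Nup107 also passed in the 6 libraries (adjusted p = 0.0481), and Nup133, Nup160 and Nup43 did not (0.131, 0.141 and 0.127). With any 1 library left out, Nup107 passed in each of the 8 fits, whereas Nup133 lost its call in 4, Nup160 in 6 and Nup43 in 6. Among these 6 members Nup85 had the highest level per length, 111 ± 2.03 TPM in medium. Nup85 was measured at 94.9, 98.6, 95.7 and 93.2 CPM with corticosterone and at 98.9, 98.1, 99.8 and 107 CPM in medium. Its groups overlapped, since corticosterone replicate 2 was above medium replicate 2, and its log2 fold change of -0.08 ± 0.031 did not pass (adjusted p = 0.0657), as for Nup37 (-0.07 ± 0.036, 0.15).

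Nup188, a large inner ring scaffold protein, fell by 0.09 ± 0.028 (adjusted p = 0.0263; 0.00234 in the 6 libraries), the 1 of 5 inner ring members that passed in either fit. That is 20% of the ring, beside 20.6% of all genes that fell in the 8 libraries and 18% in the 6. The call of Nup188 was lost without corticosterone replicate 3 or 4 and without medium replicate 2 or 3. Nup205, its close relative and the highest of the ring with 53.9 ± 1.16 TPM in medium, stood at 224, 221, 213 and 217 CPM with corticosterone and 221, 226, 230 and 229 CPM in medium. Corticosterone replicate 1 was above medium replicate 1, and the difference of -0.05 ± 0.025 did not pass (adjusted p = 0.136). Nup93 and Nup155, which link the ring to the channel and the membrane, had log2 changes of -0.05 each with adjusted p of 0.216 and 0.147. Nup35 shares sequence with other genes, with 57.0% of its 31-mers found in no other gene, and was at 21 CPM in corticosterone replicate 2 against 29.7 to 33.6 CPM in the other 7 libraries.

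Nup62 (ENSMUSG00000109511.1, chr7:44816088-44830812 in GENCODE M21 on GRCm38, as all gene positions here), the FG nucleoporin at the centre of the channel complex, had one of the largest falls of the set. Its level was 80.8, 82.1, 84.5 and 79.3 CPM in corticosterone libraries 1 to 4 and 88.9, 91.6, 97.1 and 92.6 CPM in medium libraries 1 to 4. Every corticosterone library was below every medium library, and Nup62 fell by 11.7% (log2 fold change -0.18 ± 0.031, adjusted p = 0.000529; -0.17 ± 0.04 and 0.0028 in the 6 libraries). On the TPM of the 6 libraries Nup62 did not pass, at 55 and 48.6 TPM in corticosterone 3 and 4 and 57.9 to 59 TPM in medium. Its partner Nup54 did not pass (-0.04 ± 0.029, adjusted p = 0.256). The third partner, Nup58, carries the symbol Nupl1 in GENCODE M21 and is outside the rule; Nupl1 stood at 0 to 0.352 CPM while the overlapping protein-coding gene model Gm49336 stood at 102 to 109 CPM (log2 fold change -0.03 ± 0.025, adjusted p = 0.342). Nup98, a mobile FG nucleoporin with roles in mRNA export, was at 176, 173, 170 and 172 CPM with corticosterone and 183, 185, 181 and 174 CPM in medium. Medium replicate 4 lay within the corticosterone range, and the log2 change of -0.06 ± 0.025 did not pass (adjusted p = 0.0606).

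On the cytoplasmic side 2 of 3 members fell (66.7%, beside 20.6% of all genes), the same 2 in the 6 libraries (beside 18%). Ranbp2, the giant filament protein that binds Ran and SUMO enzymes, was at 467, 469, 459 and 463 CPM with corticosterone and 483, 484, 491 and 490 CPM in medium. The groups did not overlap although the difference was small, -0.07 ± 0.02 on the log2 scale (adjusted p = 0.0164), and did not pass without corticosterone replicate 4. Nup214, the docking site of Xpo1 and of the mRNA export helicase, fell by 0.10 ± 0.034 (adjusted p = 0.0295), and by 0.16 ± 0.032 in the 6 libraries (0.000753); it did not pass without corticosterone replicate 3 or 4 or medium replicate 2 or 4. Nup88, the partner of Nup214, had 108, 104, 105 and 104 CPM with corticosterone and 108, 109, 113 and 110 CPM in medium. Corticosterone replicate 1 and medium replicate 1 are equal at the precision shown, and the log2 change of -0.07 ± 0.025 did not pass (adjusted p = 0.0525). Per length, Nup88 with 71.9 ± 1.19 TPM and Ranbp2 with 71.5 ± 0.841 TPM in medium did not differ beyond their spread.

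Tpr, the coiled-coil scaffold of the nuclear basket, was the only 1 of its 3 members to pass (33.3%, beside 20.6% of all genes that fell). In the 6 libraries Nup153 passed too (66.7%, beside 18%). Tpr was at 400, 408, 379 and 392 CPM with corticosterone and 405, 424, 435 and 424 CPM in medium. Corticosterone replicate 2 exceeded medium replicate 1, and the log2 change was -0.10 ± 0.03 (adjusted p = 0.0211; 0.00508 in the 6 libraries). The call was lost in 5 of the 8 fits that leave out 1 library: without corticosterone replicate 3 or 4 and without medium replicate 2, 3 or 4. Nup153 had -0.07 ± 0.029 (adjusted p = 0.0585; -0.10 ± 0.035 and 0.0402 in the 6 libraries), and Nup50, a cofactor that helps to release importin alpha cargo, was the single nucleoporin with a positive value, 0.05 ± 0.028 (adjusted p = 0.165).

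Of the 3 membrane anchors 1 fell (33.3%, beside 20.6% of all genes), Pom121 (ENSMUSG00000053293.9, chr5:135376141-135394546). Its values were 131, 126, 124 and 124 CPM with corticosterone and 140, 138, 139 and 138 CPM in medium. The groups did not overlap, and Pom121 fell by 8.91% (log2 fold change -0.13 ± 0.024, adjusted p = 0.000657; -0.16 ± 0.03 and 0.000414 in the 6 libraries). Of its exon bases 11.9% lie opposite exons of Nsun5, and the strand setting of the quantification is not given in the sources used here. Ndc1 had -0.08 ± 0.038 (adjusted p = 0.113) over 8 libraries and -0.12 ± 0.044 (0.0449) over 6. Nup210 was at the edge of detection, at 0.406 to 0.736 CPM and 0.504 ± 0.153 TPM in medium.

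**Figure D2:**
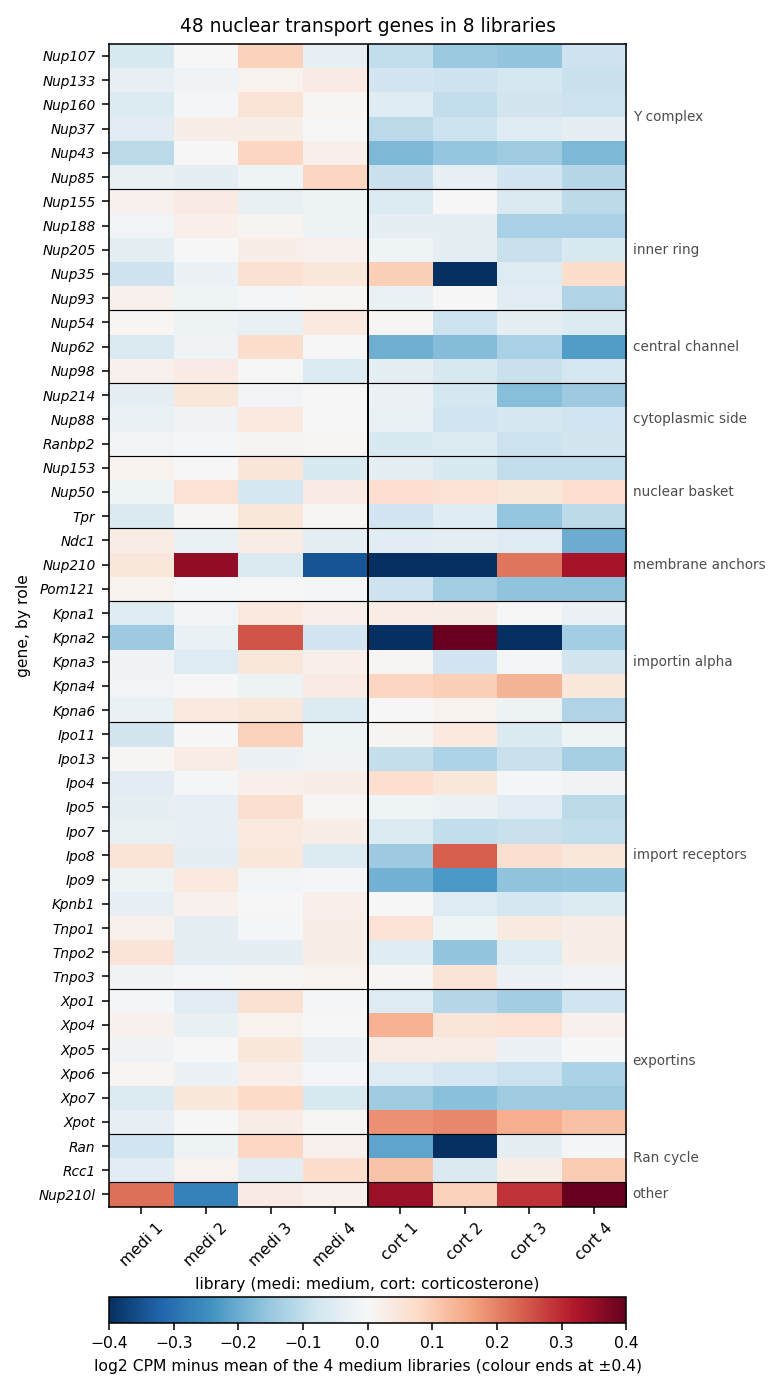
Colour shows log2 CPM minus the mean of the 4 medium libraries for each of the 48 tested members (rows, by role) in each library (columns, medium at left); colours end at ±0.4. Most nucleoporin rows are blue in the 4 corticosterone columns (on the TPM of all 8 libraries the family's median is above 0), and Ran, Kpna2 and Nup35 differ among the corticosterone libraries.

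Importin alpha proteins read the nuclear localisation signal and hand the cargo to Kpnb1. Of 5 tested 1 rose on counts (20%, beside 19.5% of all genes), Kpna4 (ENSMUSG00000027782.10, chr3:69067149-69127113). Kpna4 was at 169, 170, 175 and 164 CPM with corticosterone and 158, 159, 157 and 163 CPM in medium. The groups did not overlap, but corticosterone replicate 4 and medium replicate 4 were close, and the log2 fold change was 0.09 ± 0.026 (adjusted p = 0.0149; 0.0328 in the 6 libraries). Kpna4 did not pass when scaled by library size alone (adjusted p = 0.0743) or with a term for corticosterone 1 and 2 (0.0515), nor on the TPM of the 6 libraries. Per length Kpna4 was at 60.4 ± 1.34 TPM in medium, the highest importin alpha row, but below Kpna2 with its copies (304 ± 7.33 TPM). Kpna1 (0.01 ± 0.026), Kpna3 (-0.04 ± 0.03) and Kpna6 (-0.03 ± 0.036) did not pass, with adjusted p of 0.841, 0.353 and 0.529.

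Kpna2 (chr11:106988629-106999541), the importin alpha known for its high level in dividing cells, could not be read from its own row. It was listed at 12.7, 28.8, 12.4 and 16.5 CPM with corticosterone and 16.4, 17.8, 21.6 and 17.2 CPM in medium, a difference of -0.05 ± 0.3 on the log2 scale that did not pass (adjusted p = 0.918). Only part of its sequence is its own: of its 31-mers 34.0% occur in no other gene, and 64.2% occur in Gm10184 (chr17:89908462-89910449), annotated as protein coding, which held 178, 277, 298 and 286 CPM with corticosterone and 336, 333, 342 and 347 CPM in medium. A second copy, the processed pseudogene Gm10259 (chr3:25211016-25212605, with 50.2% of the 31-mers), held 118 CPM in corticosterone replicate 1, 10.8 CPM in replicate 2 and 0 to 1.15 CPM in the other 6 libraries. Summing Kpna2 with the 5 genes that hold at least 10% of its 31-mers, an alternative chosen after the data were seen, gave 310, 317, 312 and 303 CPM with corticosterone and 353, 351, 364 and 364 CPM in medium. The sums did not overlap, and the summed Kpna2 fell by 13.3% (log2 fold change -0.21 ± 0.024, adjusted p = 2.13e-05; -0.21 and 1.92e-05 in the 6 libraries), the largest fall among the members in that fit. The summed level of the importin alpha rows overlapped between the groups (442.1 ± 11.2 CPM with corticosterone, 436 ± 7.88 CPM in medium; SD, n = 4), but with Kpna2 and its copies in the sum it was 713.5 to 744 CPM with corticosterone and 763.2 to 787.6 CPM in medium, without overlap. With sums, 2 members rose and 17 fell, 39.6% beside 40.2% of all genes, and the sum cannot say which copy the reads came from.

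**Figure D3:**
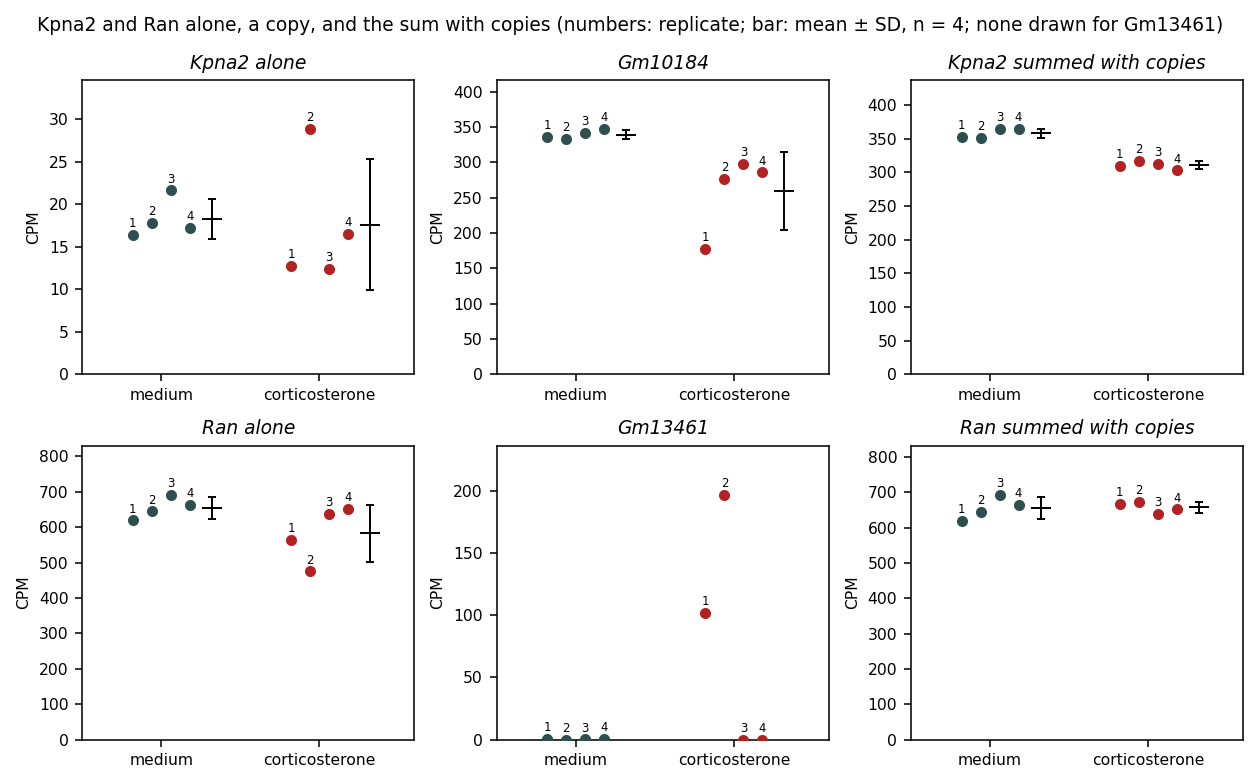
CPM (y axis from 0) in each library, numbered by replicate, for Kpna2 and Ran alone (left), for one copy of each (middle) and summed with their copies (right); bars are mean ± SD (n = 4) except for Gm13461. The Kpna2 row scatters at 12.4 to 28.8 CPM while its sum separates the groups at 303 to 317 against 351 to 364 CPM, and Gm13461 is high in corticosterone 1 and 2, where Ran alone is low.

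Kpnb1 and its relatives, the import receptors, had 0 of 11 higher and 3 lower on counts (27.3% lower, beside 20.6% of all genes). The numbers were equal at an unadjusted p under 0.05, in DESeq2, in limma-voom and in the 6 libraries, and 0 and 5 when scaled by library size alone. In that last fit the median log2 change over all genes was -0.035, against -0.005 in the main fit. Ipo9 (ENSMUSG00000041879.13, chr1:135382312-135430499), which imports ribosomal proteins, histones and actin, had the smallest p of all members. It was at 296, 288, 302 and 303 CPM with corticosterone and 333, 347, 335 and 336 CPM in medium. The groups were separated by a gap wider than the range within either group, and Ipo9 fell by 12% (log2 fold change -0.18 ± 0.025, adjusted p = 6.54e-05; -0.16 ± 0.029 and 0.000336 in the 6 libraries). All of its 31-mers are found in no other gene. Ipo13, which works in both directions, fell by 0.11 ± 0.026 (adjusted p = 0.00421), and Ipo7, a carrier of ribosomal proteins and histone H1, fell by 0.09 ± 0.025 (0.0149), a call lost without corticosterone replicate 4 and without medium replicate 4. Kpnb1, the importin beta that also imports the glucocorticoid receptor with importin alpha, was at 926, 895, 883 and 892 CPM with corticosterone and 906, 938, 926 and 940 CPM in medium. Corticosterone replicate 1 lay within the medium range, and its log2 change of -0.04 ± 0.023 did not pass (adjusted p = 0.14). The summed level of the import receptors was 2831 to 2894 CPM with corticosterone and 2908 to 2981 CPM in medium, without overlap.

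The other import receptors, Ipo4, Ipo5, Ipo8, Ipo11, Tnpo1, Tnpo2 and Tnpo3, ranged from -0.06 to 0.06 on the log2 scale with adjusted p of 0.23 to 0.927. Tnpo3, which carries serine-arginine splicing factors, was at 146 ± 3.61 CPM with corticosterone and 146 ± 1.26 CPM in medium (SD, n = 4; log2 fold change 0.00 ± 0.024, adjusted p = 0.9). Its transcripts were split unlike in the other libraries in corticosterone 1 and 2: Tnpo3-201 held 18.65% and 51.82% of its counts there and 83.97% to 90.53% in the other 6. On the TPM of all 8 libraries the family's median was 0.09 and that of the exportins 0.09, against -0.10 and -0.09 on the TPM of the 6 libraries.

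Of 6 exportins tested, 1 rose (16.7%, beside 19.5% of all genes) and 3 fell (50%, beside 20.6%). The numbers were the same in the 6 libraries, beside 18.4% of all genes higher and 18% lower. Xpot (ENSMUSG00000034667.8, chr10:121587380-121626332), the exportin of tRNAs, had the larger of the rises: it was at 158, 159, 154 and 151 CPM with corticosterone and 136, 139, 142 and 140 CPM in medium. Every corticosterone library was above every medium library, and the log2 fold change was 0.16 ± 0.026, an increase of 11.8% (adjusted p = 0.000264; 0.14 ± 0.031 and 0.00154 in the 6 libraries). On the TPM of the 6 libraries Xpot did not pass, at 73.1 and 67.3 TPM in corticosterone 3 and 4 and 64.3 to 72.8 TPM in medium. Of its 31-mers 77.3% occur in no other gene, and with its pseudogene Gm7389 (0.105 to 2.31 CPM) added it rose by 0.17 ± 0.027. Xpo5, the carrier of pre-miRNAs, had 131 ± 2.28 CPM with corticosterone and 130 ± 2.5 CPM in medium (SD, n = 4; log2 fold change 0.01 ± 0.024, adjusted p = 0.845), and Xpo4 had 0.07 ± 0.029 (0.0955).

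Xpo1 (CRM1), the receptor of leucine-rich export signals, was the highest exportin member per length at 101 ± 3.88 TPM in medium. It was at 261, 250, 246 and 256 CPM with corticosterone and 269, 262, 282 and 269 CPM in medium. The groups did not overlap, though corticosterone replicate 1 and medium replicate 2 were nearly equal, and Xpo1 fell by 0.09 ± 0.029 (adjusted p = 0.0194). The call was lost without corticosterone replicate 3 and without medium replicate 3. Xpo7 fell by 0.15 ± 0.032 (adjusted p = 0.00207), from 122 ± 5.64 to 109 ± 1.22 CPM (SD, n = 4), and Xpo6, which exports actin, fell by 0.08 ± 0.024 (0.016), a call lost without corticosterone replicate 4.

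**Figure D4:**
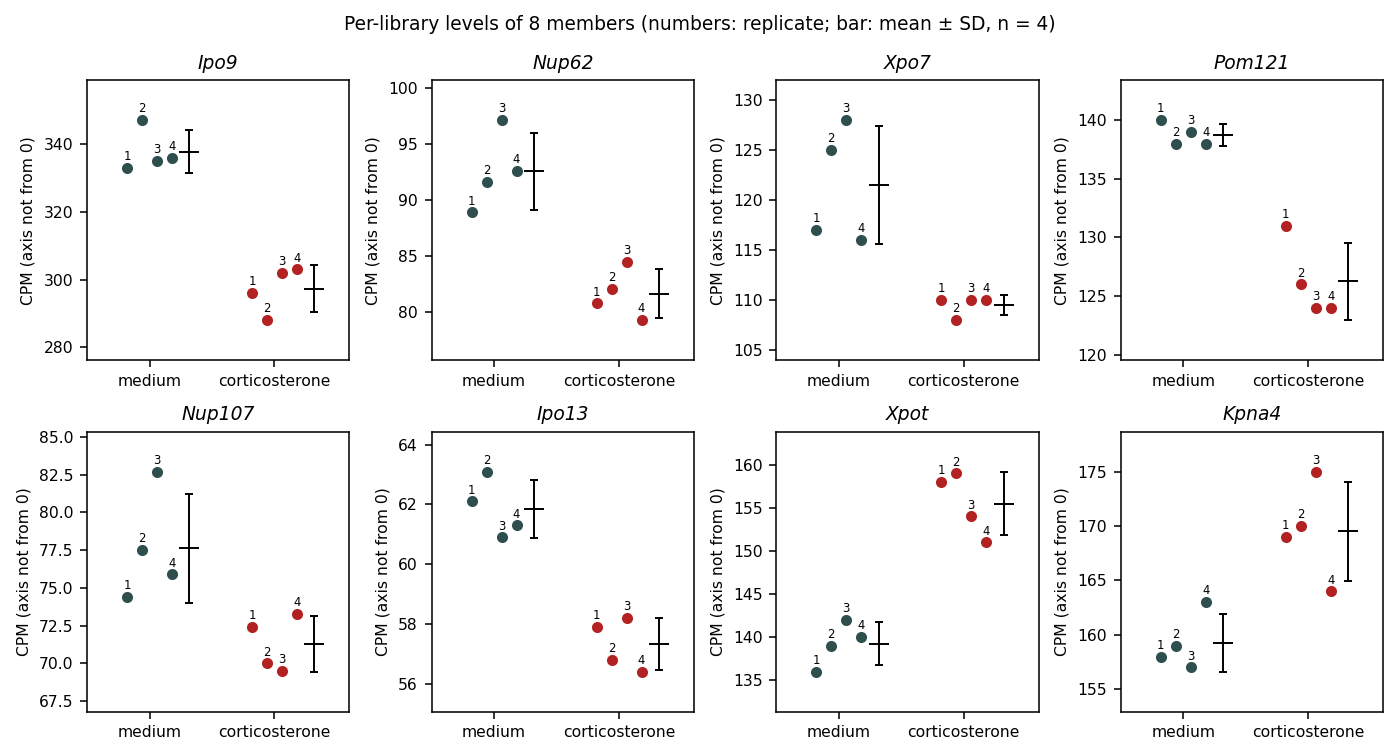
CPM (y axes not from 0) in each library, numbered by replicate, for 6 members that fell and 2 that rose; bars are mean ± SD (n = 4). In all 8 panels the 4 corticosterone libraries lie on one side of the 4 medium libraries, as for 16 of the 48 tested members (33.3%) and 39.9% of all tested genes (19.3% higher, 20.6% lower).

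Neither gene of the Ran cycle passed, at an unadjusted p under 0.05 either, with edgeR, DESeq2 or limma-voom. Ran (chr5:129020069-129024323) had the highest level per length of all members, 431 ± 15.1 TPM in medium, and was at 565, 475, 638 and 651 CPM with corticosterone and 619, 645, 692 and 662 CPM in medium. Corticosterone replicates 1 and 2 were below all medium libraries and replicates 3 and 4 within their range, and the log2 fold change was -0.17 ± 0.11 (adjusted p = 0.26). In the same libraries 1 and 2 the processed pseudogene Gm13461 (chr2:41987473-41988829), which shares 17.1% of the Ran 31-mers, held 102 and 197 CPM, against 0 to 0.732 CPM elsewhere. Summed with it, Ran was at 667, 672, 638 and 651 CPM with corticosterone and 619, 645, 693 and 663 CPM in medium, a log2 change of 0.00 ± 0.033 (adjusted p = 0.933), and in the 6 libraries without the sum it was -0.02 ± 0.038 (0.769). Corticosterone replicate 2 also placed 30.94% of its Ran counts on Ran-203, a transcript of 229 nt, and its Ran TPM was 1290 against 412 to 436 in the other 3 corticosterone libraries. Rcc1, the exchange factor, was at 33.3, 29.6, 31.3 and 33 CPM with corticosterone and 29.9, 31.1, 29.9 and 32.3 CPM in medium. The groups overlapped, and its change of 0.05 ± 0.047 did not pass (adjusted p = 0.479).

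Per length and by each gene's own row, the order of levels in medium ran from Ran over Kpnb1 (236 ± 3.02 TPM) to Ipo9 (119 ± 2.27), Ipo5 (118 ± 2.88) and Ipo7 (114 ± 2.51 TPM). Ran and Kpnb1 stood clear of the other rows, but Kpna2 summed with its copies (304 ± 7.33 TPM) lay between them. In medium the range of Ipo5 (115 to 122 TPM) overlapped those of Ipo9 (117 to 122) and Ipo7 (111 to 116), while Ipo9 was above Ipo7 without overlap. Of the member nucleoporins, Nup85 (111 ± 2.03 TPM) and Tpr (91.8 ± 1.95 TPM) were highest. Nup43 and Nup133 (18.8 TPM each) were the lowest of the Y complex members. Pore genes outside the rule were not ranked. Nup210l, a relative of Nup210, was at 1.63 ± 0.239 TPM. It had the largest point estimate of the set, 0.28 ± 0.11, which did not pass over 8 libraries (adjusted p = 0.054) and passed over 6 (0.34 ± 0.12, 0.0277), at 6.91 to 8.78 CPM with corticosterone and 5.37 to 7.55 CPM in medium.

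**Figure D5:**
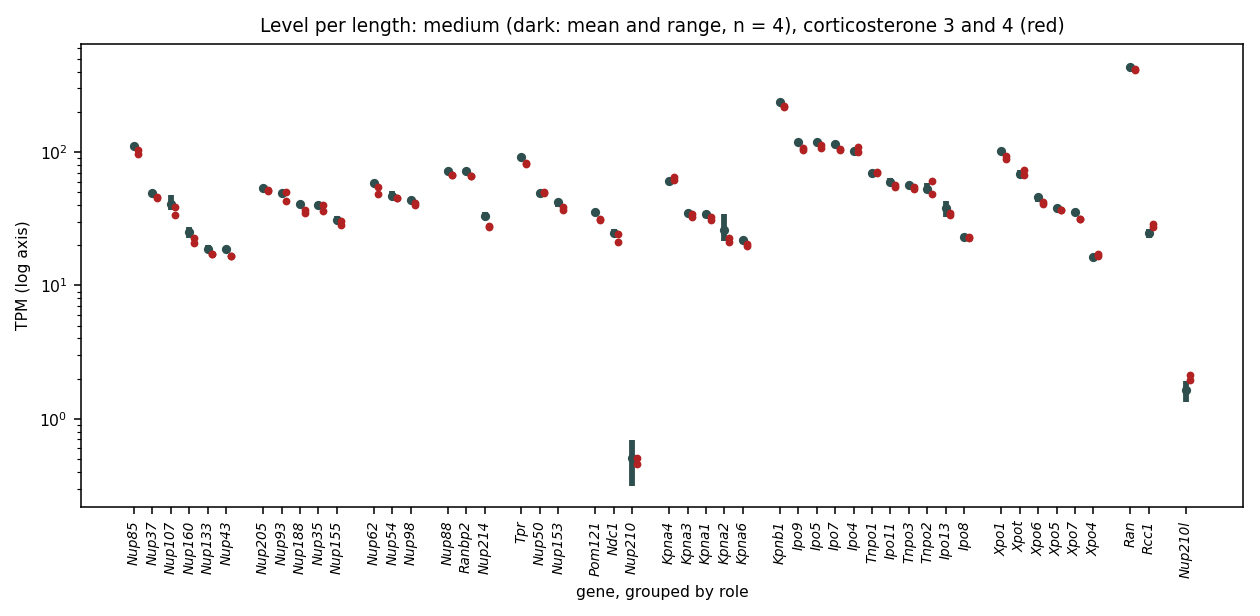
TPM per gene (log axis) by role: dark points and bars are the mean and range of the 4 medium libraries, red points corticosterone 3 and 4, the treated libraries whose TPM are on the same scale. By their own rows Ran and Kpnb1 lead the 48 tested members with 431 and 236 TPM in medium, and Nup210 and Nup210l lie lowest; Kpna2 is drawn without its copies.

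A separate list of 41 genes outside the rule, of the pore, the Ran cycle, the nuclear envelope, mRNA export and SUMO enzymes, was also counted. All were tested: 2 rose and 21 fell, 56.1% beside 40.1% of all genes. In the 6 libraries 2 rose and 19 fell (51.2% beside 36.4%). The share over 8 libraries was uneven by part. Of the nuclear envelope and lamina 8 of 9 passed (88.9%), and of SUMO, Snupn and Hikeshi 5 of 6 (83.3%). Of the pore and Ran 6 of 13 passed (46.2%), and of mRNA export 4 of 13 (30.8%). The 4 of the 41 with the smallest p are nuclear envelope proteins. Lmnb1, a lamin, fell by 0.45 ± 0.027 (adjusted p = 4.28e-08), Tmpo (lamina-associated polypeptide) by 0.41 ± 0.031 (4.29e-07), Lbr (the lamin B receptor) by 0.32 ± 0.025 (5.18e-07) and Sun2 (a linker of the inner nuclear membrane) by 0.23 ± 0.026 (1.71e-05). Lmnb1, for one, was at 121, 128, 122 and 127 CPM with corticosterone and 167, 168, 174 and 170 CPM in medium, without overlap. The 2 that rose were Rangrf (0.31 ± 0.053, adjusted p = 0.000491), a Ran-binding protein, and Thoc2 (0.09 ± 0.027, 0.0154), a subunit of the mRNA export complex THO.

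Cell cycle genes moved in the same libraries. Of 15 listed genes, among them Mki67, Top2a, the Mcm helicase subunits and Pcna, 15 fell in the 8 and in the 6 libraries (beside 20.6% and 18% of all genes), with log2 changes of -0.46 to -0.23 and a median of -0.28 over 8 libraries. Each of these falls was larger than that of any of the 48 members on its own row. The part of dividing cells in the changes of the nucleoporins, of Kpna2 summed with its copies and of the lamins was not tested.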

How the data were processed

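Deposited by the authors were one table of estimated counts per gene, without normalization, and per library transcript tables with estimated counts, effective lengths in nt and TPM, which sum to 1e+06 per the file headers and values. The submitters' processing notes name bcl2fastq, kallisto 0.46.1, mm10 and GRCm38. For the index, strandedness and gene summing, the sources used here give nothing. All 35852 gene IDs matched GENCODE M21, and the gene values of the 50 members equalled their transcript sums within 0.5 counts.

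Counts were rounded, filtered by filterByExpr, scaled by TMM and tested in edgeR 4.0.16 under R 4.3.3 (quasi-likelihood F test, robust, group as the only term; Benjamini-Hochberg over 13272 genes, threshold 0.05). CPM are per 1e+06 of the TMM-scaled library. TPM were summed per gene, and levels between genes are compared in TPM. The procedure was tested on simulated counts. Replicates differed by more than sampling noise, with a chi-square per degree of freedom of 2.16 or more in every pair and of 44.6 to 97 in pairs with corticosterone 1 or 2, so none was merged. Sharing was measured as the share of a member's 31-mers in no other gene; members were also summed with genes of the count table that hold at least 10% of their 31-mers in the same orientation, which leaves Pom121 (shared with Nsun5, on the opposite strand) and Nup35 (shared with Gm4353, not used here) unsummed.

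The members, roles and lists were chosen with earlier results of these data known. Per-library values are given for called members with an absolute log2 fold change of at least 0.3 (there were 0), the 3 called members with the smallest p in each direction, the member with the highest TPM in each role, and 9 central members; promoters for at most 6 of the first of these. Alternatives were DESeq2 1.42.0, limma 3.58.1 (voom, and trend on log2(TPM + 0.5) or log2(TPM + 0.1)), other scalings and filters, a replicate block, a term for corticosterone 1 and 2, the 6 other libraries, and each library left out. Protein sequences were not used here.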

Additional observations from a re-analysis of the deposited data

Results flagged for a closer look

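Among 96 groups of 4 libraries (48 members in 2 groups), 3 held a library far from the others by Dixon's criterion at 95%, a rate at which chance flags about 1 in 20 groups. Ipo7 was at 361 CPM in corticosterone replicate 1, above 350 to 352 CPM in the other 3. Ndc1 was at 57.5 CPM in corticosterone replicate 4, below 63.7 to 64.3 CPM in the others. Xpo7 was at 108 CPM in corticosterone replicate 2, against 110 CPM in each of the others.

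Signal also appeared in gene models outside the members. Gm10259, a processed pseudogene copy of Kpna2, held 118 CPM in corticosterone replicate 1 and 10.8 CPM in replicate 2, against 0 to 0.478 CPM in medium. Gm13461, a processed pseudogene copy of Ran, held 102 and 197 CPM in corticosterone replicates 1 and 2, against 0 CPM in replicates 3 and 4 and 0 to 0.732 CPM in medium. Both libraries are those whose effective lengths equal the transcript length plus 1, and the part of that difference in the values was not tested.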

How the results depend on the processing

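Nup107, Nup62, Pom121, Ipo13, Ipo9, Xpo7 and Xpot passed in the same direction in all 20 fits on counts, and Nup160 did so in 6, Nup43 in 9, Nup133 in 10, Nup188 and Tpr in 14, Nup214 in 15, Ranbp2 in 17, and Kpna4, Ipo7, Xpo1 and Xpo6 in 18. Library size alone gave 1 member higher (Kpna4 lost) and 27 lower, no filter 10 lower, and the term for corticosterone 1 and 2 gave 1 higher. Of all genes called, 39.4% were higher with library size alone, 51.9% with no filter and 49% with the term, against 48.6% in the main fit. With library size alone the median log2 change over all genes was -0.035, against -0.005 in the main fit. TPM of 8 libraries gave 0 higher and 0 lower with 1679 genes called (pseudocount 0.5), 0 and 0 with 1677 (0.1) and 0 and 1 with 1305 (no filter); at an unadjusted p under 0.05 each had 2 higher and 1 lower. TPM of the 6 libraries, added after seeing the data, gave 0 higher (1 at an unadjusted p under 0.05) and 2881 genes called. Of the 18 members called on counts, 8 did not pass there: Ipo13, Kpna4, Nup107, Nup133, Nup160, Nup62, Xpo6 and Xpot. Kpnb1 and Nup85 passed there and not on counts of all 8 libraries. Leaving out 1 library gave 2 to 3 higher and 7 (without corticosterone replicate 4) to 16 lower. With the replicate number as a block, 3 members were higher and 12 lower. Same-numbered libraries had correlations of -0.115 to 0.041, and the numbers were not taken as pairs. These correlations cannot exclude pairing, since corticosterone 1 and 2 differed strongly from the other libraries of their group.

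On the TPM of 8 libraries, under each of the 3 settings, log2 changes turned positive for Ipo7 (0.07), Kpnb1 (0.20), Nup133 (0.18), Nup160 (0.06), Nup188 (0.01), Nup205 (0.08), Nup88 (0.01), Nup98 (0.07), Ran (0.37), Ranbp2 (0.08), Tpr (0.13), Xpo1 (0.05) and Xpo6 (0.04); their effective lengths differ between libraries, and the cause was not tested. Kpna2 alone ranged from -0.39 to 0.09 with 1 library left out, and Ran summed with its copy was 0.00. Depth limited Nup210, Kpna7 and Nup62cl, all under 1 CPM.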
